A study of Arabidopsis thaliana with 4 samples.

Results

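The probes described here are those of the first TA plates of an Arabidopsis thaliana tiling array, plates 1 to 16. A probe belongs to the set by its name, but the plates were chosen with earlier results of these data known. A name gives the series (TA), the plate, the row (A to H) and the well, so that TA01H07 is well 7 of row H on plate 1. The 16 plates hold 1536 features, of which 1535 carry a value and TA04D08 does not, out of 21740 plate-and-well probes with a value on the whole array. Chromatin of 10-day Columbia (Col-0) seedlings, wild type and untreated, was immunoprecipitated with an antibody to H3K27me3 and compared with its own input DNA. Whole seedlings were used, so a value averages over all their cell types. There were 2 immunoprecipitations, replicates I and II, each hybridised on 2 arrays with the dyes exchanged, and these 4 arrays are the only group, without a mutant or a mock precipitation. The deposited values are identical within each dye exchange, so n = 2 throughout. The labels do not say whether I and II came from separate cultures, and the spread between them may be technical.

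H3K27me3 is the histone mark written by Polycomb repressive complex 2, whose catalytic subunits in Arabidopsis include CURLY LEAF and SWINGER. It lies on genes that are kept silent in a given tissue, many of them regulators of development, and the chromodomain protein LHP1 binds it. In Arabidopsis the mark is known for covering the transcribed part of single genes or small groups of neighbouring genes, rather than the very broad domains seen in animals. Genes and positions of the probes were not used here, and neither genes nor sequences are therefore given.

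Values are in units of the deposited scale, which behaves as a log ratio of unstated base, after subtraction of each replicate's median over all plate-and-well probes (-0.94 in I and -1.20 in II). The direction is likely immunoprecipitate over input, on the sole ground that the long tail of the array lies on the high side; no source used here states it. A probe is called upper where both replicates lie 1 unit or more above the median. Where 2 values are given together, the first is of replicate I and the second of replicate II. Neighbours are consecutive wells, row by row and plate by plate. No source used here says whether this is the order along a chromosome.

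The first TA plates carried upper probes on every plate, in many short blocks separated by wells that missed the rule, some low and some raised. Of the 1535 probes, 327 were upper (21.3%), against a background of 16.2% over all plate-and-well probes and 16.7% over the 17393 other TA and TB probes. In replicate I alone, 482 probes (31.4%, background 23.8%) reached 1 unit, and in replicate II alone 336 (21.9%, background 17.1%). With limma (moderated test of both replicates, Benjamini-Hochberg adjustment over all 21740 probes, threshold 0.05), 526 members were called above the array median (34.3%, background 27.1%). Another 27 were called below it (1.76%, background 4.81%), and 982 were not called. TA plates 58 to 99 had 38.1% called above and 2.41% below, and all TB plates 29.9% and 1.53%. TA plates 17 to 29 had 13.5% above and 13.3% below, and TA plates 30 to 57 had 12.7% and 15.0%. All 327 upper probes were among the 526, just as all 3524 upper probes of the array were called above. The means of the 526 ran from 0.57 to 3.77 units.

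**Figure D1:**
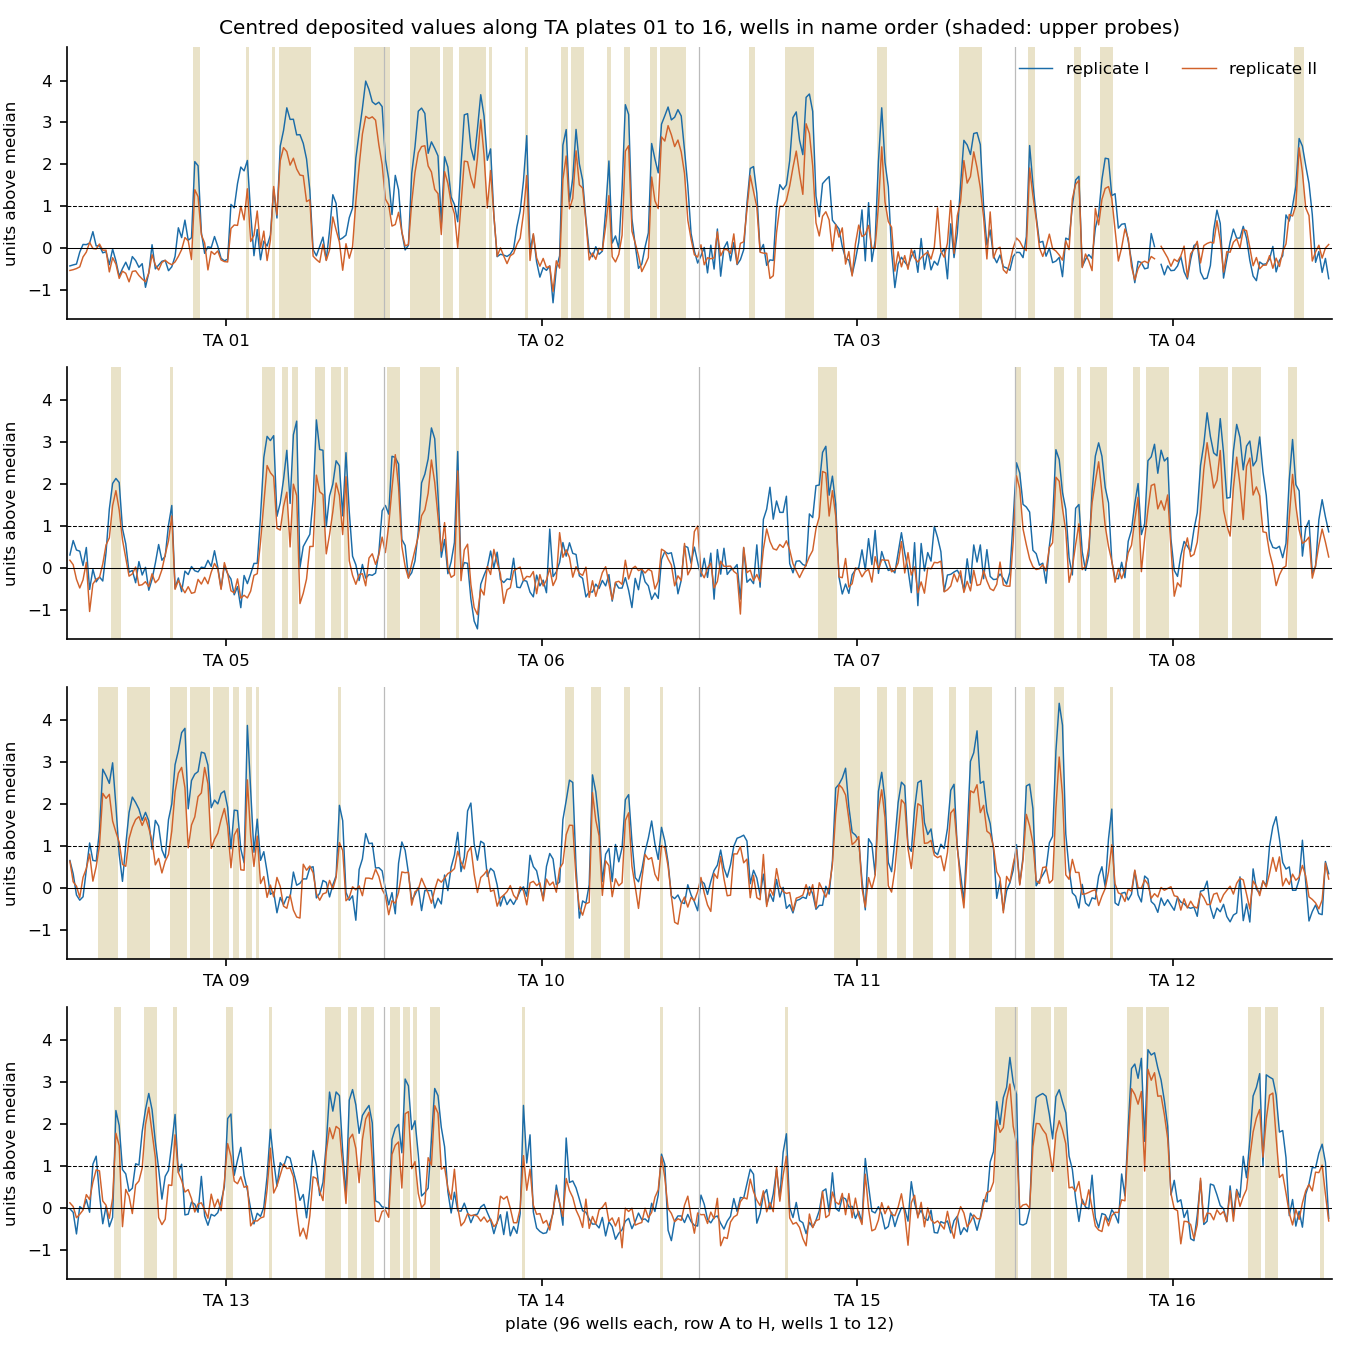
Deposited values in units above the array median (y axis; the direction of the ratio is not stated) for each well of TA plates 1 to 16 in name order (x axis, 4 plates per panel), with replicate I in blue and replicate II in orange. Shading marks the 327 upper probes, at or above the dashed line at 1 unit in both replicates; they form blocks of at most 11 wells, closely spaced on plates 2, 8 and 9 and sparse on plates 7, 12 and 15.

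The distribution of the members was shifted upwards mainly in its upper part. Their medians were 0.27 and 0.12 units, where the other TA and TB probes had 0.03 and 0.02. At the 75th percentile the members stood at 1.37 and 0.86 units, against 0.98 and 0.65. At the 5th percentile they stood at -0.58 and -0.53, against -0.63 and -0.61. The medians differed by 0.24 and 0.10 units, a mean of 0.17 ± 0.10 (SD, n = 2). Both replicates gave the same sign, and the exact permutation test over them gave p = 0.5, the smallest value that 2 replicates allow, so the design cannot establish this difference.

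The size of that difference depended on what the members were set against. TA plates 58 to 99 had nearly the same profile, with 22.7% upper probes and medians of 0.34 and 0.21 units, both slightly above those of the first plates. The plates that follow directly, TA 17 to 29, had 7.63% upper probes and medians of -0.28 and -0.24. Plates of both kinds lay on either side of this border. Plate 15 had 7 upper probes of 96 and plate 16 had 32 of 96. Past it plate 17 had 4 of 94 and plate 18 had 21 of 96, and the first plate with none was plate 22. Against TA plates 58 to 99 and all TB plates together, the excess of upper probes was 1.72 percentage points in place of 4.59, and the mean difference of medians was 0.068 units. Without plates 2 and 8, a choice made after the values were seen, 18.1% of the members were upper and the excess over the other TA and TB probes was 1.38 percentage points.

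Single plates ranged from 6.25 to 44.8% upper probes, with a median of 20.8% over the 16 plates and 15.6% over the 183 other TA and TB plates. Plate 2 was the fullest with 43 upper probes and plate medians of 1.40 and 0.82 units. Plate 8 came next with 41 upper probes and medians of 1.49 and 0.75. Only on these 2 member plates was the median well above 1 unit in replicate I, and in replicate II no member plate reached that level.

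Plate 9 held 35 upper probes, plate 16 held 32 and plate 11 held 29. The 4 fullest plates together carried 46.2% of the upper probes. A middle group was formed by plate 1 with 23, plate 13 with 22, plate 3 with 21 and plate 5 with 19. Plate 13 differed from the others of this group in its level, with medians of 0.76 and 0.47 units beside 0.08 to 0.19 units in replicate I for plates 1, 3 and 5.

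The sparse plates were 4, 6 and 14 with 11 upper probes each, plate 10 with 9, plates 12 and 15 with 7 each, and plate 7 with 6. Even so, none of the 16 plates lacked upper probes, whereas 19 of the 183 other plates (10.4%) had none. TA plates 58 to 99 shared this trait, with 0 of 42 plates lacking them, and 5 of the 13 TA plates 17 to 29 had none. At the other end, no member plate passed 50%, as 6 of the other plates did. Full and sparse plates alternated along the names rather than following one gradient, and values of wells a whole plate apart had correlations of -0.05 and -0.04 (Pearson's r over 1438 pairs of wells of the same arrays, a description).

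**Figure D2:**
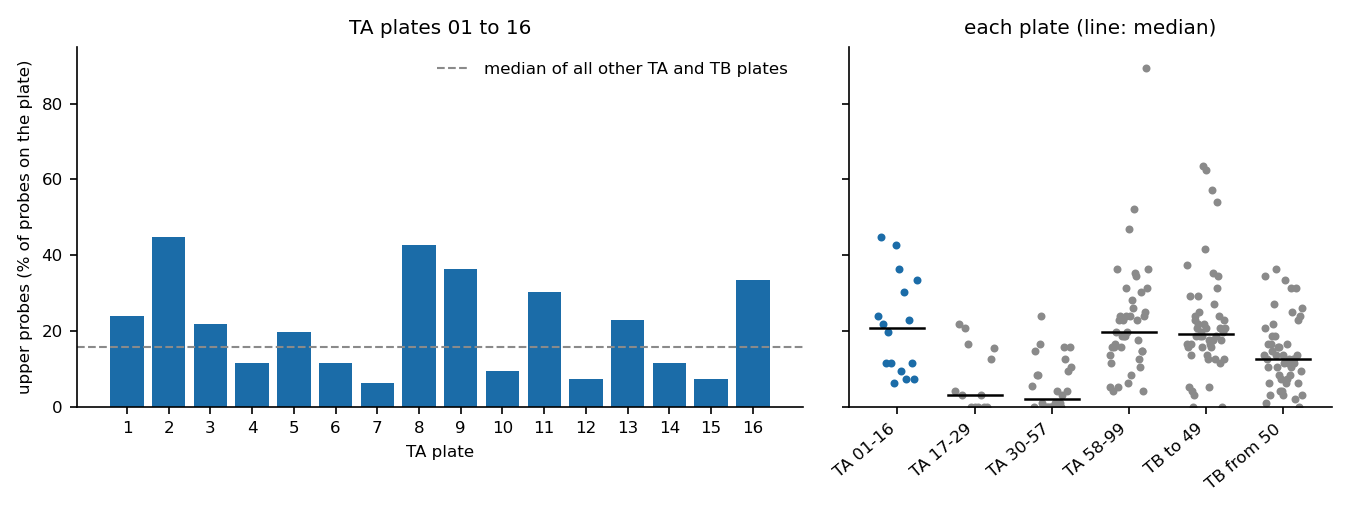
Left, upper probes as a percentage of the probes on each of TA plates 1 to 16, with the median of the other TA and TB plates dashed at 15.6%. Right, the same percentage for every TA and TB plate by group, points being plates and lines medians; the first 16 plates spread from 6.25 to 44.8%, with a median near that of TA plates 58 to 99 (19.8%) and above that of TA plates 17 to 29 (3.16%).

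In consecutive wells the 327 upper probes made up 90 runs, of 3 probes at the median and 3.63 on average. Few unbroken runs were long. The longest had 11 probes, and only 2 runs reached 10, and 6.42% of the upper members lay in runs at least that long. In the other TA and TB probes, 52 of 759 runs reached 10, the longest had 46, and 26.97% of the upper probes lay in them. TA plates 58 to 99, with a similar share of upper probes, had 28.1% of them in runs of 10 or more, TA plates 30 to 57 had 11.4% and TA plates 17 to 29 had none. The difference in the number of long runs depended on how runs were taken. With 1 interrupting well allowed, 8 of 72 member runs (11.1%) had 10 or more upper probes, against 61 of 631 (9.67%) in the other TA and TB probes. With runs taken in replicate I alone, 10 of 108 (9.26%) reached 10, against 102 of 984 (10.4%). In replicate II alone, 2 of 93 (2.15%) did, against 52 of 858 (6.06%).

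Runs of 5 to 9 probes numbered 24 and held 49.8% of the upper members, against 32.9% of the other upper probes. This share was higher still on TA plates 17 to 29 (60.7%) and lower on TA plates 58 to 99 (34.7%) and 30 to 57 (28.2%). Runs of 2 to 4 numbered 44 and held 37.6%, against 32.5%. Single upper probes numbered 20 and held 6.12%, against 7.67%. There were 5.86 runs per 100 probes here, 4.36 in the other TA and TB probes and 5.81 on TA plates 58 to 99. These are counts on the same 2 replicates and no test was made of them.

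**Figure D3:**
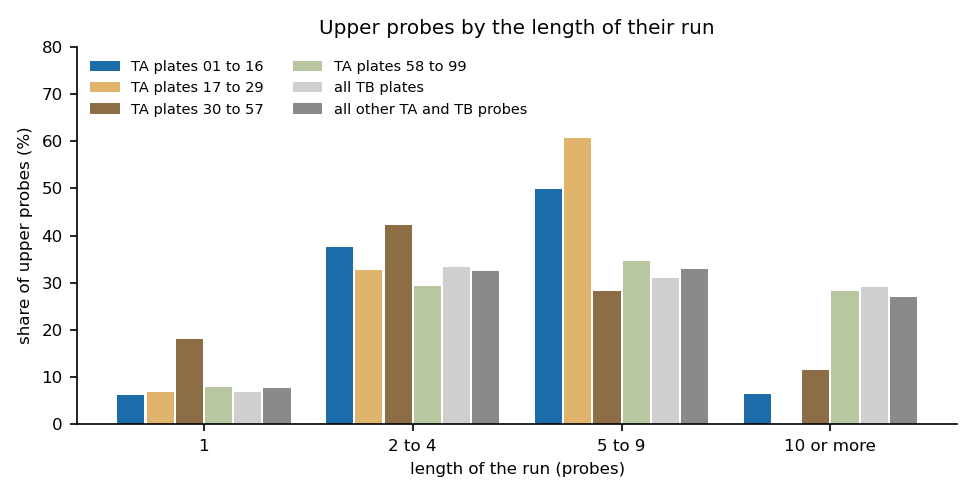
Share of upper probes (y axis, %) by the length of the run they lie in (x axis, probes), for TA plates 1 to 16, 17 to 29, 30 to 57 and 58 to 99, all TB plates and all other TA and TB probes. On the first plates 49.8% of upper probes lie in runs of 5 to 9 and 6.42% in runs of 10 or more, where TA plates 58 to 99 have 28.1%, TA plates 30 to 57 have 11.4% and TA plates 17 to 29 have none.

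The greatest length depended on the rule. With runs taken in replicate I alone the longest member run had 22 probes, against 54 elsewhere on the TA and TB plates. With 1 interrupting well allowed it had 18, against 85. After centring on the mode, after giving the replicates equal spread and after quantile normalization it had 18, against 46 in each case. The longest member run was shorter than the longest of the others under each of 11 alternative settings, but the other TA and TB probes are 11.3 times as many, and a larger set tends to have a larger maximum.

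The 2 longest runs lay close together on plate 1. The first, TA01F05 to TA01G02, covered 10 wells at means of 2.62 and 1.85 units. Its highest probe by the mean of both replicates, TA01F07, stood at 3.35 and 2.30 units (SD 0.74, limma adjusted p = 0.000492). On its left a narrow gap at TA01F04 (0.72 and 0.79 units) separated it from the single upper probe TA01F03 (1.41 and 1.47). On its right the values went from 1.38 and 1.16 units at TA01G02 to -0.03 and -0.19 at TA01G03, a sharp end within 1 well in both replicates.

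The longest run, TA01H04 to TA02A02, continued across the boundary of plates 1 and 2. Its 11 wells averaged 3.05 and 2.26 units. The values climbed over 3 wells, from 2.15 and 1.10 units at TA01H04 to 3.99 and 3.14 at TA01H07 (SD 0.60, limma adjusted p = 0.000313). In replicate I they stayed at 3.38 units or more through TA01H12 (3.38 and 2.00), and TA02A01 was lower in both replicates (2.12 and 1.17). The wells just outside, TA01H03 (0.96 and 0.03) and TA02A03 (0.80 and 0.53), were raised in replicate I and less so in replicate II.

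The third, TA02A09 to TA02B05, had 9 wells at means of 2.60 and 1.84 units, and was the first in name order of 4 runs of that length. It began abruptly, from 0.07 and 0.08 units at TA02A08 to 1.78 and 1.09 at TA02A09. By the mean of both replicates it peaked at TA02A12 (3.34 and 2.42 units, SD 0.65, limma adjusted p = 0.00039). After its last well, TA02B05 (2.20 and 1.30), the probe TA02B06 stood at 0.58 and 0.32 units and was not called, and the next well, TA02B07, was upper again (2.18 and 1.83).

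**Figure D4:**
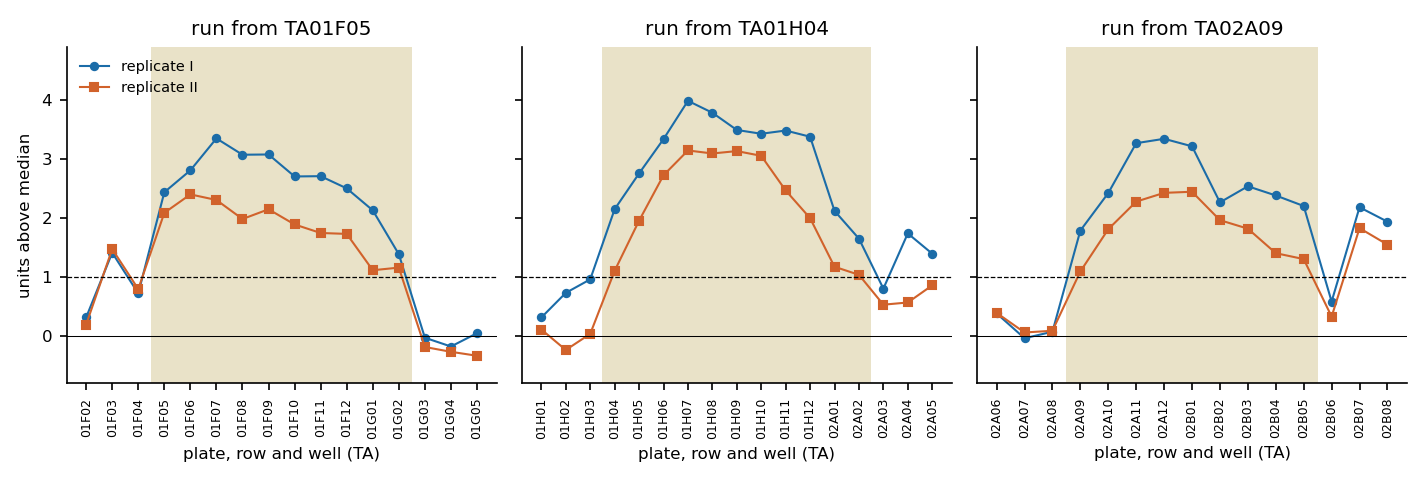
Values of each well (y axis, units above the median; replicate I as blue circles, replicate II as orange squares) in the 3 longest runs, shaded, and 3 wells on either side (x axis, plate, row and well). Each run rises to an inner maximum, at 3.35, 3.99 and 3.34 units in replicate I. A similar outline appears in replicate II at a lower height. There the maximum lies at TA01F06 (2.40 units) in place of TA01F07, and at TA02B01 (2.44) in place of TA02A12.

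Across the 26 runs of 5 or more probes, the mean of a run lay between 1.84 and 3.15 units in replicate I and between 1.41 and 2.69 in replicate II. Replicate I was the higher in all 26, and the ratio of II to I had a median of 0.73, from 0.62 to 0.87. Over the whole array, replicate I was the higher in 97.8% of the upper probes. In 24 of the 26 the highest probe was not at either end. Every probe of these runs was among the limma calls, as was every upper probe of the array.

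The highest of these runs by the mean of both replicates lay side by side on plate 16. TA16D05 to TA16D11 had 7 wells at means of 3.15 and 2.69 units, and unlike most it was highest at its first well, TA16D05 (3.77 and 3.31 units, SD 0.33, limma adjusted p = 0.000313). The single well TA16D04 (1.59 and 0.88) parted it from TA16C11 to TA16D03, with 5 wells at 3.07 and 2.49 units. Around these runs the values were low, with TA16C10 at 0.28 and 0.17 units and TA16D12 at 0.31 and 0.35.

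Plate 9 held 3 runs in close succession. TA09C08 to TA09C12 had 5 wells at means of 3.15 and 2.33 units, TA09D02 to TA09D07 had 6 at 2.91 and 2.17, and TA09D09 to TA09E01 had 5 at 2.12 and 1.49. The wells between them, TA09D01 (1.89 and 0.96 units) and TA09D08 (1.91 and 0.94), missed the rule only in replicate II. On plate 8 the runs TA08E09 to TA08F05 and TA08F07 to TA08G03, with 9 wells each, were parted in the same way by TA08F06 (1.68 and 0.76 units). Their means were almost equal, at 2.85 and 2.04 units for the former and 2.86 and 2.02 for the latter.

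The lowest of the 26 in replicate I was TA09B07 to TA09C01 (means 1.84 and 1.51 units), where 7 wells stayed between 1.60 and 2.17 units in replicate I and between 1.18 and 1.70 in replicate II. The lowest in replicate II was TA11F06 to TA11F11, with 6 wells at 1.87 and 1.41 units. Height and length were only loosely related among the 26 runs (Spearman's rho 0.23 across the 26 runs in replicate I, a description). With runs set in replicate I alone and read in replicate II, which did not define them, single probes averaged 0.83 ± 0.48 units (SD over 19 runs). The average was 1.08 ± 0.44 for 51 runs of 2 to 4, 1.46 ± 0.27 for 28 runs of 5 to 9 and 1.89 ± 0.29 for 10 runs of 10 or more.

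Some runs were parted by a narrow gap. In 18 places a single well lay between member runs, and in 13 of them that well passed 1 unit in replicate I but not in II. In 1 place, TA16G04 (0.99 and 1.21 units), the reverse held, and 4 wells passed in neither. The gap wells had medians of 1.56 and 0.83 units. Of the 18, 17 were called above the median by limma, and none lay below the array median. With such gaps bridged the 90 runs became 72, and the 759 runs of the other TA and TB probes became 631. Gap wells lie between upper wells by definition, and no background was counted for their values or calls.

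Short runs could be as high as long ones. The highest member of all was TA12B02, at 4.41 and 3.12 units (mean 3.77, SD 0.91, limma adjusted p = 0.000341). Its value in replicate I was the highest of the 21740 probes, while in replicate II it ranked number 51. It was the middle of only 3 wells, between TA12B01 (3.26 and 1.91 units) and TA12B03 (3.89 and 2.23), on plate 12, which held 7 upper probes in all. The other 4 of the 5 highest members belonged to longer runs: TA01H07 and TA01H08 to the run of 11, and TA16D05 and TA16D07 to that of 7.

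Single upper probes had lower means, at 1.97 and 1.39 units over the 20, but a few were high and isolated. TA06B11 stood at 2.78 and 2.32 units (SD 0.33, limma adjusted p = 0.000324) between TA06B10 (0.61 and -0.17) and TA06B12 (-0.10 and -0.30). TA05H01 stood at 2.75 and 2.18 units (SD 0.41) between TA05G12 (1.24 and 0.80) and TA05H02 (1.34 and 0.18), which passed in replicate I only. TA02D08, at 2.68 and 1.73 units (SD 0.67), had a raised neighbour on one side and a low one on the other.

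Near the limit of the rule, by the lower of the 2 replicate values, the 2 lowest upper probes were TA08C04 (1.92 and 1.0002 units) and TA10H01 (1.45 and 1.01). Just outside were TA04B06 (0.999 and 1.18) and TA01E05 (1.93 and 0.998). All 4 were called above the median by limma.

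Blocks mostly ended with a steep step. The fall took 1 or 2 wells for edges set in replicate I and read in II, and more wells the other way round. The setting and the reading replicate change together here, and blocks of replicate I often reached further out than those of II. The 2 falls therefore cannot be compared as shapes of an edge. Edges were set in 1 replicate alone, from runs of 2 or more probes at 1 unit, and values were read in the other. For edges set in replicate I, the last well inside averaged 1.02 ± 0.52 units in replicate II (SD over 178 edges) and the first well outside 0.26 ± 0.40. The step was downwards at 161 of the 178 edges (90.4%), against 1240 of 1347 (92.1%) in the other TA and TB probes. By the third well outside the mean was -0.04 units, over the 117 edges that had a value at that distance. For edges set in replicate II and read in replicate I, the last well inside averaged 2.23 ± 0.64 units and the first outside 0.99 ± 0.61 (SD over 138 edges). That step was downwards at 134 (97.1%), against 1005 of 1065 (94.4%) in the other TA and TB probes. There the values approached the median over more wells, at 0.48 units in the second well outside (108 edges) and 0.32 in the third (91 edges). The outer means thus rest on fewer edges than the step itself.

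The step at an edge was of similar size elsewhere. In the other TA and TB probes the same step was 0.74 ± 0.60 units (SD over 1347 edges) when read in replicate II and 1.10 ± 0.75 (SD over 1065) when read in replicate I, beside 0.76 ± 0.60 and 1.24 ± 0.72 for the members. Read in replicate II, the last well inside averaged 1.02 units for members and 1.03 for the others, and the second well 1.48 in both. In the third well from the edge the members stood at 1.85 ± 0.61 units (76 edges) against 1.72 ± 0.67 (594 edges). In the fourth well they stood at 1.91 units (50 edges) against 1.72 (406 edges), and in the fifth at 2.18 (28 edges) against 1.73 (266 edges). Read in replicate I, the fifth well stood at 2.70 units (14 edges) against 2.74 (140 edges). Edges are not replicates, and these differences were not tested. Of the 138 edges of member runs set in replicate II, 67 (48.6%) fell on the same well as in replicate I. At another 31 the block of replicate I reached 1 well further, at 8 it reached 2 and at 28 it reached 3 or more. The other 4 edges were not in a block of replicate I. In the other TA and TB probes 45.0% fell on the same well. Edges within 1 well made up 71.0% for the members and 71.1% for the others.

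**Figure D5:**
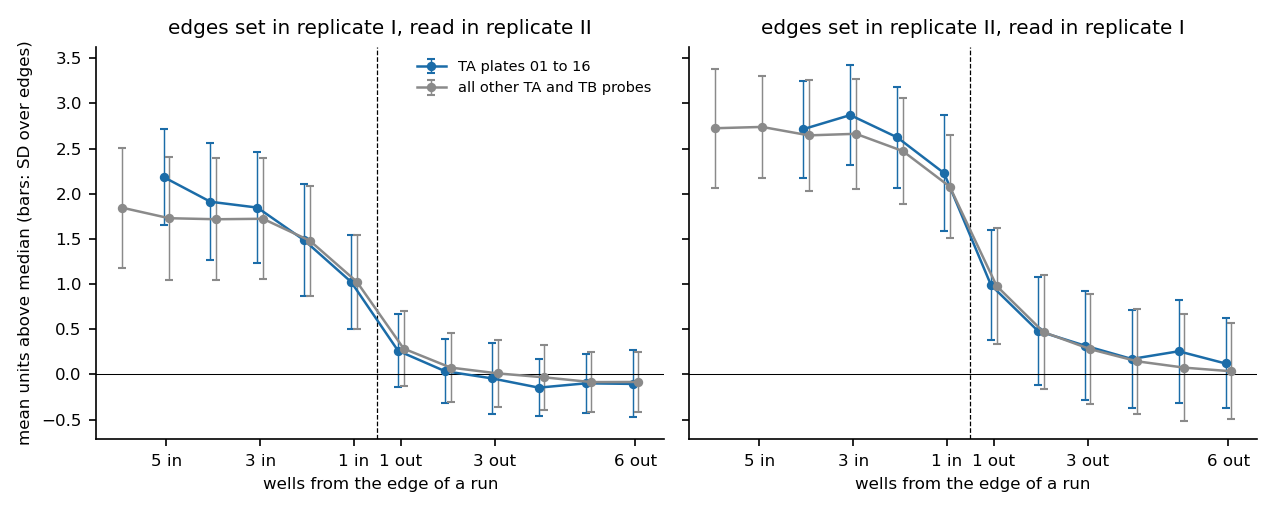
Mean value (y axis, units above the median; bars are SD over edges) by distance in wells from the edge of a run (x axis, inside on the left of the dashed line, outside on the right), for TA plates 1 to 16 in blue and all other TA and TB probes in grey. Edges were set in one replicate and read in the other. The number of edges falls with distance, and distances with under 20 edges are left out. For the members the step from the last well inside to the first outside is from 1.02 to 0.26 units in replicate II and from 2.23 to 0.99 in replicate I.

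An upper member was followed by another upper probe in 237 of 327 cases (72.5%), and by the same count 74.0% of the other TA and TB upper probes were. A member that was not upper was followed by an upper probe in 7.46% of 1207 cases, against 5.23%. The correlation of replicate I with replicate II in the next well was 0.77 here and 0.79 elsewhere on the TA and TB plates. At 5 wells it was 0.28 against 0.40, at 8 wells 0.16 against 0.29, at 24 wells 0.14 against 0.15, and at 48 wells 0.01 against 0.12. Wells are not independent, and these correlations are descriptions.

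Wells that were not upper formed 91 stretches with a median of 6 probes. The longest stretch without an upper probe ran over 109 wells from TA06B12 to TA07C12, with medians of -0.15 and -0.07 units. The following ones ran over 80 wells, TA12C07 to TA13B02 (-0.20 and -0.01), and over 68 wells, TA09G12 to TA10E07 (0.29 and 0.06). For scale, the longest such stretch was 359 wells within TA plates 17 to 29 and 136 within TA plates 58 to 99.

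Such stretches were not uniformly low. Within the longest, the 8 wells TA07B08 to TA07C03 averaged 1.45 units in replicate I, none below 1.16, and 0.58 in replicate II, none above 0.93. All 8 were called above the median by limma, although none was upper. It was the longest set of consecutive members past 1 unit in replicate I alone. In all, 155 members (10.1%) passed in replicate I alone, 73 of them beside an upper probe, and 9 passed in replicate II alone. In the other TA and TB probes 7.97% passed in replicate I alone and 0.954% in II alone. On TA plates 58 to 99 these shares were 10.2 and 1.74%. No background share was counted for wells beside an upper probe. The medians of the 155 were 1.31 and 0.68 units.

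Plate 1 began low. Its first 38 wells, TA01A01 to TA01D02, had medians of -0.29 and -0.37 units and no well past 1 unit in either. They held 4 of the 27 members called below the median, among them TA01B12 at -0.94 and -0.80 units (SD 0.09, limma adjusted p = 0.0106).

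Of the 3 lowest members by mean, 2 lay side by side on plate 6. TA06C05 stood at -1.45 and -1.11 units (SD 0.24, limma adjusted p = 0.00255), and its neighbour TA06C04 at -1.27 and -0.94 (SD 0.23, limma adjusted p = 0.00475). They lay 6 and 5 wells after the isolated upper probe TA06B11. TA02E04 was next by mean after TA06C05, at -1.31 and -1.04 units (SD 0.19, limma adjusted p = 0.00342). TA06C05 and TA02E04 were the only members with both replicates 1 unit or more below the median, of 10 such probes on the array (background 0.046%). TA07B01, at -0.74 and -1.10 units (SD 0.25, limma adjusted p = 0.0109), was lower in replicate II, unlike the others. With centring on the mode the calls of TA07B01 and TA01B12 ended (limma adjusted p = 0.0645 and 0.0566). None of the 27 members called below stood beside an upper probe. No background share was counted for this, and values of adjacent member wells were correlated (Pearson's r 0.81 and 0.78). How many members were called below depended on the scaling, the threshold and the variance prior, from 3 to 937. Calls above made up 95.1% of all member calls in the main setting. They made up 21.0% with values as deposited, 81.8% with equal spread of the replicates, 79.6% after quantile normalization and 70.7% with a trended and robust variance prior.

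The replicates ranked the members alike, with Pearson's r of 0.935 and Spearman's rho of 0.852 over 1535 members of the same arrays, as a description. Regressing replicate II on replicate I gave a slope of 0.71, as in the other TA and TB probes. Upper members averaged 2.50 and 1.84 units, beside 2.39 and 1.77 for the other upper probes. Replicate I was the higher in 324 of the 327 (99.1%), against 97.8% of all upper probes of the array and 97.5% in the other TA and TB probes. The SD between replicates, pooled over probes, was 0.52 units for upper members and 0.31 for the rest, beside 0.49 and 0.27 in the other TA and TB probes.

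Place on the plate was set beside these results. By row, the share of upper members ran from 15.1% in row E to 25.5% in row B. By well number it ran from 17.2% in wells 6 and 12 to 26.6% in well 3. In the other TA and TB probes the same well numbers had 16.6, 17.7 and 16.3%. The part of print position in the results was not tested.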

How the data were processed

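The deposited table gives a score per probe and array; per the labels these are 2-colour hybridisations of directly labelled, amplified DNA. No source used here states the authors' normalization, background correction, log base or direction; array design and single intensities were not used here. All 4 value columns were used. Dye-exchanged arrays were averaged, and the median over 21740 probes was subtracted from each replicate. limma 3.58.1 in R 4.3.3 (lmFit, eBayes, intercept only, 1 residual degree of freedom, Benjamini-Hochberg at 0.05) was fitted to all probes and was tested on simulated data, as was the step that finds runs and neighbours. A missing well ends a run. The other steps used scipy 1.17.1, pandas 2.3.3, numpy 2.4.6 and matplotlib 3.10.9 under Python 3.11.15. The precision of a value rests on 2 replicates.

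Plates, rules and tests were chosen with earlier results of these data known. Named probes are the ends and highest probes of runs of 5 or more, the 5 highest and lowest members, the 3 highest single upper probes, the wells beside the 3 longest runs, the 2 members on either side of the size rule, and some gap and neighbouring wells chosen after their values were seen. Alternatives were other centring, scaling, thresholds, size rules, variance priors and comparison sets.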

Additional observations from a re-analysis of the deposited data

How the results depend on the processing

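The 327 upper members became 87 with values as deposited, 497 at 0.5 units and 2 with the sign turned; mode centring, equal spread, quantile normalization and centring on the TA and TB probes gave 318 to 384. The 526 members called above by limma became 249 as deposited and 27 with the sign turned, and 391 to 627 otherwise. The 27 called below became 937 as deposited, 3 with mode centring, 137 with equal spread, 161 with quantile normalization, 54 with centring on the TA and TB probes, 3 at adjusted p under 0.01, 225 with a trended and robust prior and 526 with the sign turned. The excess of upper probes over the other TA and TB probes, 4.59 percentage points, was 1.85 as deposited, 1.38 without plates 2 and 8, 1.72 against TA plates 58 to 99 and TB plates, and 4.22 to 6.72 with 1 replicate left out. The difference of medians, 0.17 units, was 0.068 against that same set. The 90 runs became 43 as deposited. The longest run, 11 probes, had 7 as deposited, 18 with mode centring, equal spread, quantile normalization or 1 well bridged, 22 at 0.5 units, and 11 to 22 with 1 replicate left out. Upper members followed by another, 72.5%, were 50.6% as deposited, 77.3% at 0.5 units, 64.2% at 1.5 units and 72.3 to 77.6% with 1 replicate left out. As deposited, the mean turned negative at TA01F04 (-0.32), TA01H03 (-0.58), TA02A03 (-0.41), TA02A08 (-0.997) and TA02B06 (-0.62); with mode centring that of TA01G03 turned to 0.14. Of 96 named probes, 28 kept their direction as deposited but were no longer called, as did 2 (TA07B01 and TA01B12) with mode centring and 4 at adjusted p under 0.01. Changes of centring, size rule, sign and threshold move these values by construction; the cause of the others was not tested. Settings for the excess, the longest run, the calls below and single probes, and the one without plates 2 and 8, were added after the data were seen. A fit without a replicate has no residual degrees of freedom and was not made. Read in replicate II, the step at member edges was 0.63 units under the rule of 0.5 units, 0.76 at 1 unit and 0.99 at 1.5 units. Read in replicate I, it was 1.07, 1.24 and 1.18 units.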
